A study of Mus musculus with 8 samples.

Results

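The 5 genes described here encode the main secretory products and marker proteins of club cells: Scgb1a1, Scgb3a1, Scgb3a2, Cbr2 and Muc5b. They were chosen by name, are 5 of the 25965 genes with deposited values, and all 5 are among the 15627 genes that passed the filter on low values and were tested. RNA was purified from whole mouse lungs at E18.5, an embryonic stage shortly before birth, and at postnatal day 1.5 (P1.5). At each stage lungs were Wfdc2 +/+ or Wfdc2 GFP/GFP, with 2 libraries in each of the 4 groups, and the Wfdc2 +/+ lungs came from littermates. The Wfdc2 GFP/GFP lungs carry an IRES-EGFP cassette at both Wfdc2 alleles in place of a piece of exon 1 and all of exon 2. The allele was made by targeting TT2 embryonic stem cells, which were combined with ICR morulae, and its selection marker was removed by a cross to CAG-Cre mice, in which Cre is driven by a promoter active in most cells. Wfdc2 encodes a small secreted protein with the fold of a protease inhibitor and is itself an epithelial product. The methods describe total lung RNA and name no division into airways and parenchyma, so large and small airways cannot be told apart. How much trachea or main bronchus each library held is not given.

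Club cells are the non-ciliated secretory cells of the conducting airways. They release secretoglobins, small disulfide-linked proteins, onto the airway surface, they carry enzymes that metabolise inhaled compounds, and they act as progenitors of ciliated cells. Scgb1a1 (also called CCSP or uteroglobin) is the classical club cell product, whereas Scgb3a1 and Scgb3a2 are related secretoglobins with partly different positions along the airway, Scgb3a2 appearing early in lung development. Cbr2 is a mitochondrial carbonyl reductase, and Muc5b is a polymeric mucin that forms the airway gel.

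Reads were cut to 36 bases before mapping, so an identical run of at least that length could let one secretoglobin receive reads of another. The 2 coding sequences below, taken from the GENCODE M21 transcripts (mm10), are shown for that reason, with the longest run of bases that they share in capitals. For Scgb3a1 the first 300 of its 315 coding bases are given.
Scgb1a1: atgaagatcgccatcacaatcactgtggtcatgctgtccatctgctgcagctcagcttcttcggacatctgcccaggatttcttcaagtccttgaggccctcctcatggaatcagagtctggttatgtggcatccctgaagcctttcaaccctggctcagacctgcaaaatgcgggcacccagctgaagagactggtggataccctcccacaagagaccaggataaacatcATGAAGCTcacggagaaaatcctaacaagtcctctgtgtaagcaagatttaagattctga
Scgb3a1: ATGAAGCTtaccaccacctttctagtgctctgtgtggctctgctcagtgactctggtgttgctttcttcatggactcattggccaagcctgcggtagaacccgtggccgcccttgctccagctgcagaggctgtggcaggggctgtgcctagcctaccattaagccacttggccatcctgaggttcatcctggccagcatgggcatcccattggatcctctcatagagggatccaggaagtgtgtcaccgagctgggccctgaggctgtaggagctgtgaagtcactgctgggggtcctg
The shared run was 8 bases long, at bases 232 to 239 of the Scgb1a1 coding sequence and at bases 1 to 8 of that of Scgb3a1. Between Scgb3a2 and either of these genes the longest shared run was 9 bases. Of the windows of 36 bases in the annotated transcripts, 0 of 441 of Scgb1a1, 0 of 598 of Scgb3a1 and 0 of 912 of Scgb3a2 occurred in the transcript of any other gene. For Cbr2, 188 of 1323 windows (14.21%) also occurred in Gm11771, an annotated unprocessed pseudogene, and for Muc5b 11 of 12412 windows (0.09%) occurred in the related mucin gene Muc5ac. How reads mapping to several places were counted is not given in the sources used here, so the Cbr2 value is uncertain. Only exact matches were counted. Windows that match another gene with mismatches were not, so the shares given are lower limits.

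Promoters are shown for Scgb3a1 and Cbr2, the 2 of the 5 genes with an entry in the RefSeq promoter table (GRCm38.p6, the build mm10). The 250 bases before each RefSeq start are printed in the direction of the gene, with matches to short motifs in capitals. Scgb3a1 was read from chr11:49663345-49663594 (plus strand) and Cbr2 from chr11:120732022-120732271 (minus strand).
Scgb3a1 promoter: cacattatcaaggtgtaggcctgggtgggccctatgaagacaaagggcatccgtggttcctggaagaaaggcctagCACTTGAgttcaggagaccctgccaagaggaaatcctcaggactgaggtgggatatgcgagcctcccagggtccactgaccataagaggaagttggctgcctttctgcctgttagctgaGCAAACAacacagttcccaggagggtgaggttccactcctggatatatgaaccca
Cbr2 promoter: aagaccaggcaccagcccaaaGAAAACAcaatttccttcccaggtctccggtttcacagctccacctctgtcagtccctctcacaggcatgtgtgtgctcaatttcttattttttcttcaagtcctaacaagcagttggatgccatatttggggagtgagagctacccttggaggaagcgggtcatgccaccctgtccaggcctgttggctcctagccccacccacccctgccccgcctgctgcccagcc
The motifs searched on both strands were CACTTNA (NKX2 family), TGTTTNC (forkhead family), TTGCNNAA (C/EBP family) and, for the TATA box, TATAAA. The Scgb3a1 window held 1 match of the NKX2 motif, beginning at −174 from the start, and 1 of the forkhead motif on the other strand, beginning at −55. The Cbr2 window held 1 match of the forkhead motif on the other strand, beginning at −229. These distances are from the RefSeq start. For both genes that start differs from the one in the deposited table. Of the Cbr2 window, 93 bases lie inside the gene span given below. The Scgb3a1 window ends at 49663594, and the span of that gene begins at 49663610. Among the 32851 promoters in the table, the same window held the NKX2 motif in 10.1%, the forkhead motif in 17.8%, the C/EBP motif in 9.56% and the TATA box in 12.4%.

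The deposited values are log2 RPKM, where the reads of a gene are divided by the kilobases of its whole span, introns included, and by the total reads of its library. The totals behind the values ran from 19457647 to 37209333 reads. Wfdc2 was checked first and had 8038 to 32845 reads in the Wfdc2 +/+ libraries and 0 to 12 in the Wfdc2 GFP/GFP libraries. Replicate 1 of every group held 4121 to 90980 reads of Xist, the RNA of the inactive X chromosome, and replicate 2 held 1 to 13, so the replicate number goes with sex. Libraries were run on either of 2 sequencers, and which library went to which cannot be told from the labels. A pair of libraries stood apart from the other library of their group. In E18.5 Wfdc2 GFP/GFP replicate 1, long genes were high (median log2 RPKM of genes over 50 kb −0.82, against −1.46 to −1.31 in the other E18.5 libraries). Genes under 5 kb stood at −1.39, against −1.16 in replicate 2 and −1.52 and −1.49 in Wfdc2 +/+. The short median minus the long one was −0.57, against 0.30 in replicate 2 and −0.21 and −0.15 in Wfdc2 +/+. P1.5 Wfdc2 +/+ replicate 2 carried oesophageal keratin reads (Krt4 930 and Krt13 1092, against at most 114 and 57 elsewhere). Values without one of these libraries are given beside the main results.

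Scgb1a1, Scgb3a2 and Cbr2 were among the most abundant mRNAs of the lung after birth, at places 2 to 31 at P1.5, while Scgb3a1 stood at places 66 to 387. Of all reads at P1.5, those of Scgb1a1 made up 1.08% and 0.539% (Wfdc2 +/+) or 0.632% and 0.609% (Wfdc2 GFP/GFP). The places count 22643 genes by reads per kilobase of the longest annotated transcript, and Scgb1a1 was second in all 4 P1.5 libraries. At E18.5 it stood at places 23 and 8 in Wfdc2 +/+, and at places 504 and 40 in Wfdc2 GFP/GFP. The 5 genes together took 0.280% and 0.358% of the reads of the E18.5 Wfdc2 +/+ libraries, 0.0853% and 0.343% of E18.5 Wfdc2 GFP/GFP, 2.19% and 0.932% of P1.5 Wfdc2 +/+, and 1.34% and 1.14% of P1.5 Wfdc2 GFP/GFP.

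To order the genes, levels were put on a per-transcript scale, log2 RPKM with the length of the longest transcript, which is 476 bases for Scgb1a1, 598 for Scgb3a1, 842 for Scgb3a2, 1110 for Cbr2 and 14964 for Muc5b. At P1.5 the order of the means in Wfdc2 +/+ was Scgb1a1 (13.97 ± 0.71, SD, n = 2), Scgb3a2 (12.14 ± 0.91), Cbr2 (11.11 ± 1.14), Scgb3a1 (8.75 ± 2.29) and Muc5b (−0.02 ± 1.28). In P1.5 Wfdc2 GFP/GFP it was Scgb1a1 (13.67 ± 0.04), then Cbr2 (11.54 ± 0.29) and Scgb3a2 (11.53 ± 0.29), which did not differ beyond their spread, then Scgb3a1 (9.12 ± 0.44) and Muc5b (0.76 ± 0.42). The ranges of Scgb3a2 and Cbr2 overlapped in P1.5 Wfdc2 +/+ as well, while those of Scgb1a1 and Scgb3a2 did not overlap in either genotype. At E18.5 in Wfdc2 +/+ the means of Scgb1a1 (10.66 ± 0.39) and Scgb3a2 (10.62 ± 0.23) lay within their spread, followed by Cbr2 (9.66 ± 0.21), Scgb3a1 (7.77 ± 0.00) and Muc5b (1.53 ± 0.00). In E18.5 Wfdc2 GFP/GFP the spread was wider, with Scgb3a2 at 10.01 ± 1.13, Cbr2 at 8.93 ± 1.51, Scgb1a1 at 8.40 ± 2.72, Scgb3a1 at 6.54 ± 1.86 and Muc5b at 0.97 ± 0.11, and the ranges of the first 3 overlapped.

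Scgb1a1 (ENSMUSG00000024653.2, chr19:9083636-9087958, minus strand, protein-coding, no other annotated gene overlapping) had the widest range of the 5. Its log2 RPKM was 7.20 and 7.75 in the E18.5 Wfdc2 +/+ libraries, 3.29 and 7.14 in E18.5 Wfdc2 GFP/GFP, 11.29 and 10.28 in P1.5 Wfdc2 +/+, and 10.51 and 10.46 in P1.5 Wfdc2 GFP/GFP, for replicates 1 and 2. The reads behind these values ran from 1571 to 234500. All 4 P1.5 libraries were above all 4 E18.5 libraries, and E18.5 Wfdc2 GFP/GFP replicate 1 was far below every other library, 14.4-fold below replicate 2 of its own group.

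Scgb3a1 (ENSMUSG00000064057.12, chr11:49663610-49665118, plus strand, protein-coding, no overlapping gene) is the lowest of the 3 secretoglobins. Its log2 RPKM was 6.43 and 6.43 in E18.5 Wfdc2 +/+, 3.89 and 6.52 in E18.5 Wfdc2 GFP/GFP, 9.03 and 5.80 in P1.5 Wfdc2 +/+, and 8.10 and 7.48 in P1.5 Wfdc2 GFP/GFP (833 to 17150 reads). P1.5 Wfdc2 +/+ held both the highest library and one that was below 3 of the 4 E18.5 libraries, and the 2 differed 9.42-fold. Cbr2 (ENSMUSG00000025150.10, chr11:120729489-120732114, minus strand, protein-coding, no overlapping gene) had a log2 RPKM of 8.27 and 8.57 in E18.5 Wfdc2 +/+, 6.62 and 8.75 in E18.5 Wfdc2 GFP/GFP, 10.68 and 9.06 in P1.5 Wfdc2 +/+, and 10.50 and 10.09 in P1.5 Wfdc2 GFP/GFP (9606 to 93373 reads). The lowest and the highest library were those of Scgb1a1.

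Scgb3a2 (ENSMUSG00000038791.14, chr18:43764327-43767393, plus strand, protein-coding, no overlapping gene) varied least among the secretoglobins. Its log2 RPKM was 8.59 and 8.91 in E18.5 Wfdc2 +/+, 7.35 and 8.95 in E18.5 Wfdc2 GFP/GFP, 10.93 and 9.63 in P1.5 Wfdc2 +/+, and 9.87 and 9.46 in P1.5 Wfdc2 GFP/GFP (18567 to 129499 reads). Every P1.5 library was above every E18.5 library. Muc5b (ENSMUSG00000066108.7, chr7:141839072-141873085, plus strand, protein-coding, no overlapping gene) was present at a far lower level. Its log2 RPKM was 0.35 and 0.35 in E18.5 Wfdc2 +/+, −0.14 and −0.29 in E18.5 Wfdc2 GFP/GFP, −0.30 and −2.1 in P1.5 Wfdc2 +/+, and −0.13 and −0.72 in P1.5 Wfdc2 GFP/GFP (154 to 1493 reads). It did not share the higher values of the other 4 genes after birth, and E18.5 Wfdc2 GFP/GFP replicate 1 was not its lowest library.

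**Figure D1:**
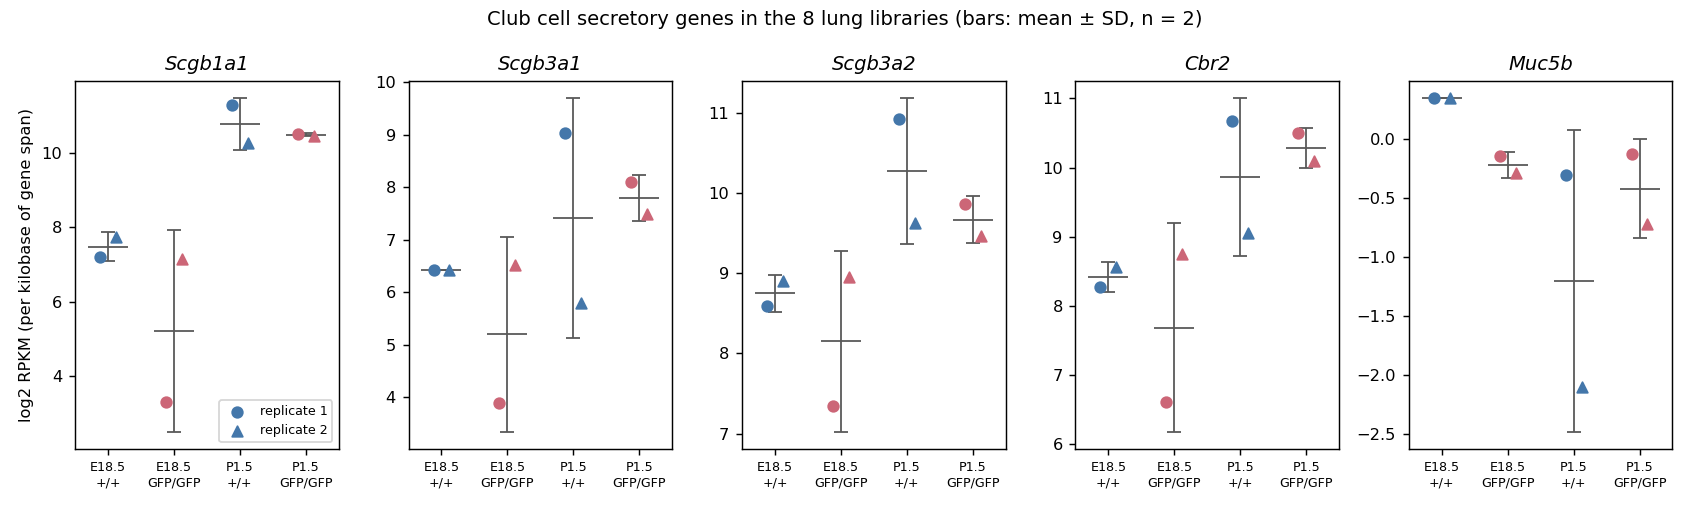
Log2 RPKM of each of the 5 genes (vertical axis, per kilobase of gene span, a separate scale for each gene) in the 4 groups (horizontal axis). Circles are replicate 1 and triangles replicate 2, and bars give the mean and SD of 2 libraries. For Scgb1a1 the P1.5 libraries lie between 10.28 and 11.29, above all E18.5 libraries, and E18.5 Wfdc2 GFP/GFP replicate 1 lies at 3.29. For Muc5b the highest libraries are those of E18.5 Wfdc2 +/+, both at 0.35.

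The gap between the 2 libraries of a group was large for these genes compared with other genes. In E18.5 Wfdc2 GFP/GFP, replicate 1 minus replicate 2 was −3.85 on the log2 scale for Scgb1a1, −2.63 for Scgb3a1, −2.13 for Cbr2 and −1.61 for Scgb3a2. Only 0.218%, 1.06%, 1.78% and 3.78% of the 15627 tested genes had a lower value of this gap, and Muc5b, at 0.15, lay near the middle. In P1.5 Wfdc2 +/+ the same gap was 3.24 for Scgb3a1, 1.80 for Muc5b, 1.61 for Cbr2, 1.29 for Scgb3a2 and 1.0 for Scgb1a1, against a median of −0.60 over the tested genes, and between 93.8% and 99.6% of the tested genes lay below. All 5 genes were thus low in replicate 2 of that group. The gaps in E18.5 Wfdc2 +/+ (−0.55 to 0.00) and in P1.5 Wfdc2 GFP/GFP (0.05 to 0.62) were smaller. In E18.5 Wfdc2 +/+, 4.19% (Scgb1a1) to 62.6% (Muc5b) of the tested genes lay below. In P1.5 Wfdc2 GFP/GFP it was 66.9% (Scgb1a1) to 92.5% (Scgb3a1), so most members stood toward the upper end there too.

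Between E18.5 and P1.5, Scgb1a1 rose in Wfdc2 GFP/GFP lungs, and the other 4 genes did not pass the test in either genotype. In Wfdc2 GFP/GFP the log2 difference of Scgb1a1 (P1.5 minus E18.5) was 5.27 ± 1.07 (standard error, n = 2 and 2), a 38.6-fold higher geometric mean, with a limma adjusted p = 0.0459 over all tested genes. Among all tested genes, 1.61% were called higher and 2.94% lower at P1.5 in this genotype, and higher genes made up 35.44% of the calls, or 66.38% after median centring. The call was lost without E18.5 Wfdc2 GFP/GFP replicate 1 (difference 3.35, limma adjusted p = 0.13) and without P1.5 Wfdc2 GFP/GFP replicate 1 (5.25, 0.205) or replicate 2 (5.30, 0.153). With the replicate number as a block, the limma adjusted p was 0.0639. The call was made in 8 of 19 alternative fits, with limma adjusted p from 0.00945 to 0.205. The differences of the other genes in Wfdc2 GFP/GFP were 2.61 ± 0.78 for Cbr2 (limma adjusted p = 0.0719), 2.58 ± 1.10 for Scgb3a1 (0.138), 1.52 ± 0.65 for Scgb3a2 (0.138) and −0.20 ± 0.57 for Muc5b (0.799). Without E18.5 Wfdc2 GFP/GFP replicate 1 these were 1.54, 1.27, 0.72 and −0.13. The Muc5b difference turned positive after median centring of the libraries (0.47), quantile normalization (0.46) and centring on the 500 genes nearest in span (0.60). With the last of these, Scgb1a1 was not called. Without E18.5 Wfdc2 GFP/GFP replicate 2, 3 of the 5 genes were called (Scgb1a1, Scgb3a2 and Cbr2). In bulk tissue, fewer cells of a type and less RNA per cell cannot be told apart.

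In Wfdc2 +/+ lungs none of the 5 genes (0) passed the limma threshold of 0.05, where 0.0256% of all tested genes were called higher and 0.032% lower at P1.5. With limma's voom on the recovered reads the count was also 0. At an unadjusted p under 0.05, 3 of the 5 genes passed, Scgb1a1 and Scgb3a2 higher and Muc5b lower at P1.5. Of all 15627 tested genes 1850 passed it, 1079 higher and 771 lower. The log2 difference was 3.31 ± 1.07 for Scgb1a1 (9.91-fold, limma adjusted p = 0.342), 1.53 ± 0.65 for Scgb3a2 (2.88-fold, 0.42), 1.45 ± 0.78 for Cbr2 (2.74-fold, 0.451), 0.98 ± 1.10 for Scgb3a1 (1.97-fold, 0.632) and −1.55 ± 0.57 for Muc5b (0.383). The P1.5 libraries lay above the E18.5 libraries without overlap for Scgb1a1, Scgb3a2 and Cbr2, as they did for 27.4% of all tested genes, and below for Muc5b, as for 28.2% of them. Scgb3a1 overlapped, and its difference was −0.64 without P1.5 Wfdc2 +/+ replicate 1 and 2.60 without replicate 2. In Wfdc2 GFP/GFP the 4 genes other than Muc5b were higher at P1.5 without overlap, against 18.7% of all tested genes.

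A contrast of the stages over both genotypes, chosen after these values were seen, set 4 libraries against 4. Scgb1a1 was higher at P1.5 by 4.29 ± 0.76 (19.6-fold, limma adjusted p = 0.033), placing it 31st of the 15627 genes by size of difference. Among all tested genes 2.58% were called higher and 2.56% lower, with 50.19% of the calls higher, or 69.38% after median centring. Cbr2 (2.03 ± 0.55, adjusted p = 0.0582), Scgb3a2 (1.52 ± 0.46, adjusted p = 0.0664), Scgb3a1 (1.78 ± 0.78, adjusted p = 0.132) and Muc5b (−0.88 ± 0.40, adjusted p = 0.146) did not pass in this limma fit. For Scgb1a1, Scgb3a2 and Cbr2 all 4 P1.5 libraries were above all 4 E18.5 libraries, an arrangement shown by 7.28% of tested genes in that direction. In the other direction it was shown by 13.7% of tested genes and by 0 of the 5. With centring on the 500 genes nearest in span, Scgb1a1 was not called. Without P1.5 Wfdc2 +/+ replicate 2 the number of genes called rose from 1 to 4 of 5, namely all but Muc5b. Without E18.5 Wfdc2 GFP/GFP replicate 2 it was 3. Without either E18.5 Wfdc2 +/+ library or either P1.5 Wfdc2 GFP/GFP library it fell to 0, and without P1.5 Wfdc2 +/+ replicate 1 Scgb1a1 lost its call (limma adjusted p = 0.0549) and Muc5b gained one (−1.33, 0.0414). Without E18.5 Wfdc2 GFP/GFP replicate 1 Scgb1a1 kept it, at 3.33 (limma adjusted p = 0.0321).

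**Figure D2:**
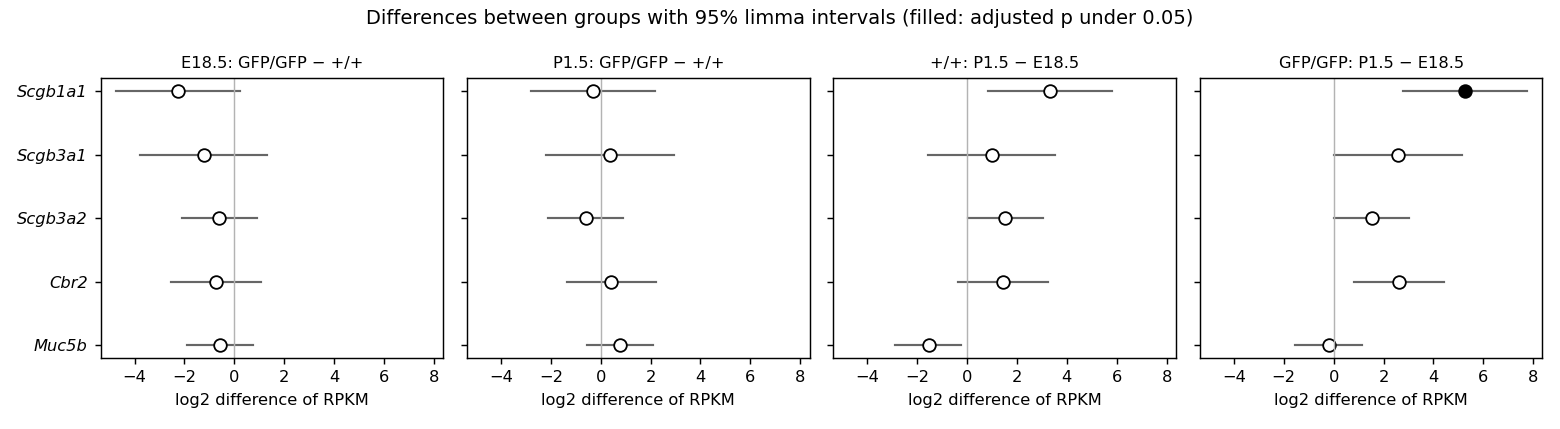
Log2 difference of each gene (points) with its 95% limma interval (lines) in the 4 comparisons of 2 libraries with 2. Filled points passed a limma adjusted p of 0.05. Only the point of Scgb1a1 in the stage comparison of Wfdc2 GFP/GFP, at 5.27, is filled, and in both genotype comparisons every interval includes 0.

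At E18.5 the comparison of genotypes asks whether club cell products differ before breathing starts. All 5 means were lower in Wfdc2 GFP/GFP than in Wfdc2 +/+, but 0 of the 5 passed the limma threshold, where 0.0192% of all tested genes were called. The count was also 0 with voom. At an unadjusted p under 0.05 it was 0 as well, against 683 of all 15627 tested genes. The log2 difference (Wfdc2 GFP/GFP minus Wfdc2 +/+) was −2.26 ± 1.07 for Scgb1a1 (95% interval −4.74 to 0.22), −1.23 ± 1.10 for Scgb3a1 (−3.79 to 1.33), −0.73 ± 0.78 for Cbr2 (−2.53 to 1.06), −0.60 ± 0.65 for Scgb3a2 (−2.11 to 0.90) and −0.57 ± 0.57 for Muc5b (−1.89 to 0.76). All 5 stood at a limma adjusted p of 1.0. Scgb1a1 and Muc5b were lower in Wfdc2 GFP/GFP without overlap, as were 9.46% of tested genes. Without Wfdc2 GFP/GFP replicate 1, which is the low library of the group, Scgb1a1 was at −0.34 and Scgb3a1, Scgb3a2 and Cbr2 turned to 0.09, 0.20 and 0.33, while Muc5b stayed at −0.64.

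At P1.5 the comparison asks whether club cell products are altered in the lung as a whole. The Wfdc2 GFP/GFP libraries overlapped those of Wfdc2 +/+ for all 5 genes, whereas 12.6% of tested genes were higher and 26.9% lower without overlap. By the limma threshold 0 of these 5 passed, with 0.0128% of all tested genes called, and the count was also 0 with voom. At an unadjusted p under 0.05 it was 0 as well, against 1710 of all 15627 tested genes. The log2 difference was −0.30 ± 1.07 for Scgb1a1 (95% interval −2.78 to 2.18, limma adjusted p = 0.931), 0.37 ± 1.10 for Scgb3a1 (−2.18 to 2.93, 0.913), −0.61 ± 0.65 for Scgb3a2 (−2.12 to 0.89, 0.785), 0.42 ± 0.78 for Cbr2 (−1.37 to 2.22, 0.85) and 0.78 ± 0.57 for Muc5b (−0.55 to 2.1, 0.671). Each of the 5 intervals reached past 2 on the log2 scale in at least 1 direction. The direction depended on the Wfdc2 +/+ library kept. Without replicate 1, Scgb1a1 was at 0.20 and Scgb3a2 at 0.04. Without replicate 2, Scgb3a1 was at −1.24, Cbr2 at −0.38 and Muc5b at −0.12. Relative to epithelial reference genes (Epcam, Cdh1, Krt8 and Krt18), the difference was −1.08 for Scgb1a1, −1.39 for Scgb3a2, −0.41 for Scgb3a1, −0.36 for Cbr2 and −0.0021 for Muc5b, with 0 of the 5 called. The median of all tested genes on that scale was −0.98, so Scgb1a1 lay near it, Scgb3a2 below it, and Scgb3a1, Cbr2 and Muc5b above it.

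Whether the difference between genotypes changed from E18.5 to P1.5 was tested by the interaction. It was 1.96 ± 1.52 for Scgb1a1 (limma adjusted p = 0.72), 1.60 ± 1.56 for Scgb3a1 (0.787), −0.01 ± 0.92 for Scgb3a2 (0.999), 1.16 ± 1.10 for Cbr2 (0.779) and 1.35 ± 0.81 for Muc5b (0.632). Of the 5 genes 0 passed, as did 0% of all tested genes, with limma on log2 RPKM and with voom. At an unadjusted p under 0.05, 0 of the 5 passed, against 1599 of all 15627 tested genes. The rise of Scgb1a1 was therefore called in one genotype and not in the other, without a called difference between them. Without E18.5 Wfdc2 GFP/GFP replicate 1 the interaction was 0.04 for Scgb1a1, 0.29 for Scgb3a1, −0.81 for Scgb3a2, 0.09 for Cbr2 and 1.42 for Muc5b.

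Scgb1a1 also rose relative to the other secretory genes of the same library. This within-library difference, on the per-transcript log2 scale, is free of the total reads of a library and was examined for all 10 pairs after the values were seen. The pairs are built from the same 5 genes, so their tests are not independent. How many pairs of other genes part the stages in this way was not counted. Scgb1a1 minus Scgb3a2 was −0.07 and 0.16 in E18.5 Wfdc2 +/+, −2.74 and −0.49 in E18.5 Wfdc2 GFP/GFP, 1.68 and 1.97 in P1.5 Wfdc2 +/+, and 1.96 and 2.32 in P1.5 Wfdc2 GFP/GFP. The mean moved by 2.77 from E18.5 to P1.5, and by 2.12 without E18.5 Wfdc2 GFP/GFP replicate 1 (two-sided exact permutation test of 4 against 4 libraries, p = 0.0286, the smallest such a test can give, 0.0409 after Benjamini-Hochberg adjustment over the 10 pairs). Scgb1a1 minus Cbr2 moved by 2.26 and Scgb1a1 minus Scgb3a1 by 2.51 (1.72 and 2.13 without that library), with the same exact permutation p. The 4 pairs with Muc5b moved by 2.40 to 5.17 (2.09 to 4.22 without it), again with p = 0.0286 in the exact permutation test. The spans of Scgb1a1, Scgb3a2 and Cbr2 are 4323, 3067 and 2626 bases and that of Muc5b is 34014 bases, so the last pairs join genes whose length classes differ. Every pair with Scgb1a1 or Muc5b tied at the smallest p, and the adjusted 0.0409 rests on the number of these ties. The same exact permutation p gave an adjusted 0.0715 in the comparisons with epithelial genes below, where fewer tests tied.

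The 3 remaining pairs did not pass. Scgb3a1 minus Scgb3a2 moved by 0.26 (exact permutation p = 0.543), Scgb3a1 minus Cbr2 by −0.25 (exact permutation p = 0.571) and Scgb3a2 minus Cbr2 by −0.51 (exact permutation p = 0.229). Scgb3a2 minus Cbr2 was 0.94 and 0.97 in E18.5 Wfdc2 +/+, 1.35 and 0.82 in E18.5 Wfdc2 GFP/GFP, 0.87 and 1.19 in P1.5 Wfdc2 +/+, and 0.00 and −0.01 in P1.5 Wfdc2 GFP/GFP. The 6 other libraries were thus all above both P1.5 Wfdc2 GFP/GFP libraries. This was noticed after the values were seen, and 2 libraries against 2 cannot go below p = 0.33 in an exact two-sided test.

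**Figure D3:**
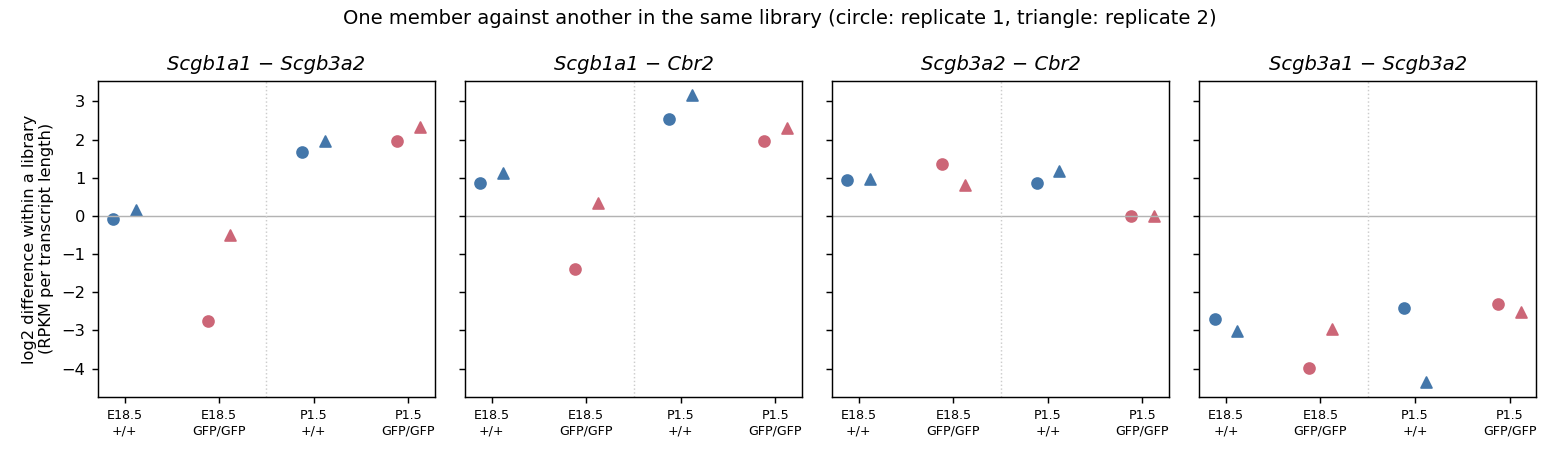
Log2 difference between 2 secretory genes of the same library (vertical axis, RPKM per transcript length) in the 4 groups (horizontal axis), with circles for replicate 1 and triangles for replicate 2. Scgb1a1 minus Scgb3a2 runs from −2.74 to 0.16 at E18.5 and from 1.68 to 2.32 at P1.5, while Scgb3a2 minus Cbr2 lies near 0 only in P1.5 Wfdc2 GFP/GFP.

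The genes whose profile over the 8 libraries was most like that of each member were found among the 7064 genes averaging 1 RPKM or more, by the root-mean-square difference of log2 values centred on each gene's mean. For Scgb1a1 they were C2.1 (0.75), Cxcl17 (0.76), an airway chemokine, and Ccl6 (0.80). Scgb1a1 had no close neighbour, and the nearest of the other 4 genes, Cbr2, was 56th (1.36). For Scgb3a1 they were Fam46b (0.31), Chia (0.37), an acidic chitinase secreted in the lung, and Cst8 (0.38), and Cbr2 was 8th (0.48), whereas Scgb3a1 was 94th for Cbr2. For Scgb3a2 they were Hspb1 (0.13), a small heat shock protein, Ecm1 (0.14) and Msln (0.18), the mesothelial protein mesothelin. For Cbr2 they were Uap1l1 (0.18), Tspo (0.18) and Jund (0.20), and for Muc5b Ssx2ip (0.46), Insig1 (0.48) and Cytl1 (0.48). All profiles share the same 8 libraries, their depth and their composition.

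The table held 1 further gene with a secretoglobin symbol, Scgb1c1. It had 61 and 50 reads in E18.5 Wfdc2 +/+, 15 and 52 in E18.5 Wfdc2 GFP/GFP, 121 and 124 in P1.5 Wfdc2 +/+, and 182 and 158 in P1.5 Wfdc2 GFP/GFP. It was higher at P1.5 in Wfdc2 GFP/GFP by 2.94 ± 0.62 (limma adjusted p = 0.047), at a level far below that of the 3 abundant secretoglobins.

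Of 10 further marker genes, 1 was called higher and 0 lower at P1.5 in Wfdc2 GFP/GFP (median log2 difference 0.78, against −0.46 over all tested genes), and 0 were called in Wfdc2 +/+ or between genotypes. The called gene was Hp, haptoglobin, at 6.40 and 6.69 in E18.5 Wfdc2 +/+, 4.62 and 6.43 in E18.5 Wfdc2 GFP/GFP, 7.71 and 6.34 in P1.5 Wfdc2 +/+, and 8.5 and 8.73 in P1.5 Wfdc2 GFP/GFP (difference 3.09 ± 0.65, limma adjusted p = 0.0469). Like the secretoglobins it was lowest in E18.5 Wfdc2 GFP/GFP replicate 1. The abundant markers Dcxr, a dicarbonyl and xylulose reductase, and Nupr1, a stress-responsive nuclear protein, had differences of 2.55 ± 0.77 (limma adjusted p = 0.0733) and 2.43 ± 0.77 (0.079) in the same comparison. In the contrast over both genotypes Nupr1 was called higher at P1.5 (2.60 ± 0.55, limma adjusted p = 0.0429) and Cckar, the cholecystokinin A receptor, lower (−1.43 ± 0.31, limma adjusted p = 0.0457). The call of Hp in Wfdc2 GFP/GFP, like all others of that comparison, was not made without E18.5 Wfdc2 GFP/GFP replicate 1. Nor was the call of Hp made without either of the P1.5 Wfdc2 GFP/GFP libraries.

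Of 18 enzymes of xenobiotic metabolism known from club cells, 16 were tested, and 0 were called higher and 1 lower at P1.5 in Wfdc2 GFP/GFP (median 0.49). The called gene was Fmo2, a flavin-containing monooxygenase, which fell by 2.82 on the log2 scale (standard error 0.34, limma adjusted p = 0.0205). Its log2 RPKM was 4.35 and 4.51 in E18.5 Wfdc2 +/+, 4.49 and 4.24 in E18.5 Wfdc2 GFP/GFP, 2.95 and 3.72 in P1.5 Wfdc2 +/+, and 1.72 and 1.37 in P1.5 Wfdc2 GFP/GFP. At P1.5 both Wfdc2 GFP/GFP values lay below both Wfdc2 +/+ values, with a genotype difference of −1.79 ± 0.34 that did not pass (limma adjusted p = 0.208). Cyp2f2, the cytochrome P450 most typical of mouse club cells, stood at 4.05 and 4.43 in E18.5 Wfdc2 +/+, 2.79 and 3.89 in E18.5 Wfdc2 GFP/GFP, 4.67 and 5.31 in P1.5 Wfdc2 +/+, and 4.05 and 4.21 in P1.5 Wfdc2 GFP/GFP. Its stage difference in Wfdc2 GFP/GFP was 0.79 ± 0.42 (limma adjusted p = 0.212). Ces1d, a carboxylesterase, differed by 0.05 ± 0.36 (limma adjusted p = 0.915). In the contrast over both genotypes 3 enzymes were called higher at P1.5, the cytochrome P450 Cyp2b10 (2.36 ± 0.40, limma adjusted p = 0.029), the glutathione transferase Gsta3 (1.66 ± 0.36, 0.0451) and the aldehyde dehydrogenase Aldh1a1 (1.59 ± 0.27, 0.031), and Fmo2 was called lower (−1.96 ± 0.24, 0.0133). Between genotypes at P1.5 the 16 enzymes had a median of −0.83, against −0.20 over all tested genes, with 0 called and 5 at an unadjusted p under 0.05, all lower in Wfdc2 GFP/GFP. Over all 15627 tested genes, 1146 were lower and 564 higher at that p.

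Among relatives of Cbr2, 0 of 5 carbonyl and dicarbonyl reductases were called in any of the 5 comparisons. In Wfdc2 GFP/GFP the stage difference was −0.07 ± 0.34 for Cbr1 and 0.26 ± 0.30 for Dhrs4, 2.15 ± 0.55 for Cbr3 (limma adjusted p = 0.0579, named after its value was seen) and 2.55 ± 0.77 for Dcxr (limma adjusted p = 0.0733), beside 2.61 ± 0.78 for Cbr2. Among mucins other than Muc5b, 6 of 9 were tested and 0 were called. The gel-forming Muc5ac had 10 to 89 reads per library. Muc1, a membrane mucin, had the highest level, with a log2 RPKM of 5.41 to 6.95, and a stage difference in Wfdc2 GFP/GFP of 1.06 ± 0.42 (limma adjusted p = 0.121). Muc16 had a genotype difference at P1.5 of −1.66 ± 0.49 (limma adjusted p = 0.331), and Muc4 one of −0.01 ± 0.70 (0.999). Of 12 genes of mucous cell secretion 8 were tested and 0 were called in the 5 comparisons, with a median stage difference of −1.29 in Wfdc2 GFP/GFP. Agr2, a disulfide isomerase needed for mucin folding, had a log2 RPKM of 0.49 and 0.23 in E18.5 Wfdc2 +/+, −0.67 and 0.32 in E18.5 Wfdc2 GFP/GFP, −3.28 and −2.77 in P1.5 Wfdc2 +/+, and −1.36 and −2.16 in P1.5 Wfdc2 GFP/GFP (25 to 540 reads). In the contrast over both genotypes it was lower at P1.5, at −2.48 ± 0.34 (limma adjusted p = 0.0174). Clca1, a secreted metalloprotease of goblet cells, was lower, at −1.50 ± 0.34 (limma adjusted p = 0.0497), and Creb3l1, a regulator of secretory capacity, differed by −0.98 ± 0.41 (limma adjusted p = 0.123).

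Of 19 measured regulators of airway secretory cells, 0 were called higher and 3 lower at P1.5 in Wfdc2 GFP/GFP (median −0.81, against −0.46 over all tested genes). These were Foxa1 (−1.64 ± 0.32, limma adjusted p = 0.0432), a forkhead factor of lung epithelium, Klf5 (−3.56 ± 0.68, adjusted p = 0.0427), a zinc finger factor of epithelium, and Grhl2 (−2.37 ± 0.50, adjusted p = 0.0465), a factor of epithelial junctions. Nkx2-1, which drives lung epithelial identity and secretoglobin transcription, had a difference of −1.05 ± 0.39 (limma adjusted p = 0.104), Cebpa, an activator of club cell genes, one of −0.11 ± 0.44 (0.857), and Hey1, a Notch target, one of 0.76 ± 0.48 (0.284). Of the 19, 0 were called in Wfdc2 +/+ or between genotypes. The same 3 genes were called lower in the contrast over both genotypes.

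Summed levels of some, but not all, marker lists moved with those of the secretory genes between libraries. In E18.5 Wfdc2 GFP/GFP replicate 1 the summed RPM (reads scaled to the library total) was 9040 for 6 alveolar type II genes, against 17900 to 22900 in the other E18.5 libraries, 1100 for 5 alveolar type I genes (against 2890 to 3410), 240 for 9 ciliated cell genes (against 334 to 399), 1300 for 7 general epithelial genes (against 1600 to 1770) and 139 for 7 leukocyte genes (against 466 to 708). The 5 secretory genes summed to 853 there, against 2800 to 3580. Airway cartilage genes were higher in that library (33.7 against 6.56 to 9.11), and mesenchymal genes were 4250 against 2750 to 3300. At P1.5, Wfdc2 +/+ replicate 2 had 4500 RPM of 4 mesenchymal genes against 640 to 1540 in the other P1.5 libraries, 1300 of 4 endothelial genes against 430 to 1010, and 109 of 5 oesophageal genes against 2.53 to 5.48. The same library had 1020 of the general epithelial genes against 2560 to 3020, 28300 of the type II genes against 48100 to 66300, and 9320 of the secretory genes against 11400 to 21900. Sftpc, the type II gene with the highest level, had a log2 RPKM of 12.9 there, against 13.78 to 14.28. The mean log2 RPKM of the type II genes, which weighs each gene alike, was 6.0, within the 5.88 to 6.25 of the other P1.5 libraries. Club cell xenobiotic enzymes summed to 2340 RPM there, against 1400 to 2390. The part of tissue composition in the results above was not tested.

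For the remaining lists, 0 of 4 tested basal cell genes and 0 of 6 neuroendocrine genes were called in the 5 comparisons, and 1 of 9 ciliated cell genes (Ccdc39, lower at P1.5, −3.17 ± 0.53, in Wfdc2 GFP/GFP, limma adjusted p = 0.0359). The abundant ciliated marker Tppp3 differed by 2.06 ± 0.64 there (limma adjusted p = 0.0763), and Foxj1, the regulator of motile cilia, by 0.15 ± 0.37 (0.782). Airway gland genes gave 2 calls higher and 1 lower of 4 tested (Ltf, lactoferrin, 3.68 ± 0.46, limma adjusted p = 0.021, Bpifb1 2.54 ± 0.52, 0.0461, and Sox9 −2.52 ± 0.45, 0.039). Among leukocyte genes the neutrophil genes S100a9 (4.85 ± 0.50, limma adjusted p = 0.0189) and S100a8 (4.17 ± 0.65, 0.032) were called higher, among general epithelial genes Cldn4, a tight junction protein (3.19 ± 0.51, 0.0331), and among type I genes the water channel Aqp5 (4.26 ± 0.95, 0.05 as rounded, just under the threshold). Of the mesenchymal genes Pdgfra was lower (−2.22 ± 0.46, limma adjusted p = 0.0461). All of these were in the stage comparison of Wfdc2 GFP/GFP, and like every call of that comparison they were lost without E18.5 Wfdc2 GFP/GFP replicate 1. Leaving out either P1.5 Wfdc2 GFP/GFP library also removed nearly all calls of that comparison. In the alveolar type II, endothelial, cartilage and oesophageal lists 0 genes were called. Thyroid genes were under the filter in all 5 cases, at 0.752 to 5.23 summed RPM. Of 5 heart genes 0 were called, and they ran from 92.3 to 583 summed RPM, with the groups overlapping. The contrast over both genotypes also called genes of these lists. Higher at P1.5 were Tppp3, the basal cell gene Krt14, Cldn4, S100a8, S100a9, Ltf and Bpifb1, and lower were Ccdc39, Sox9 and Pdgfra.

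**Figure D4:**
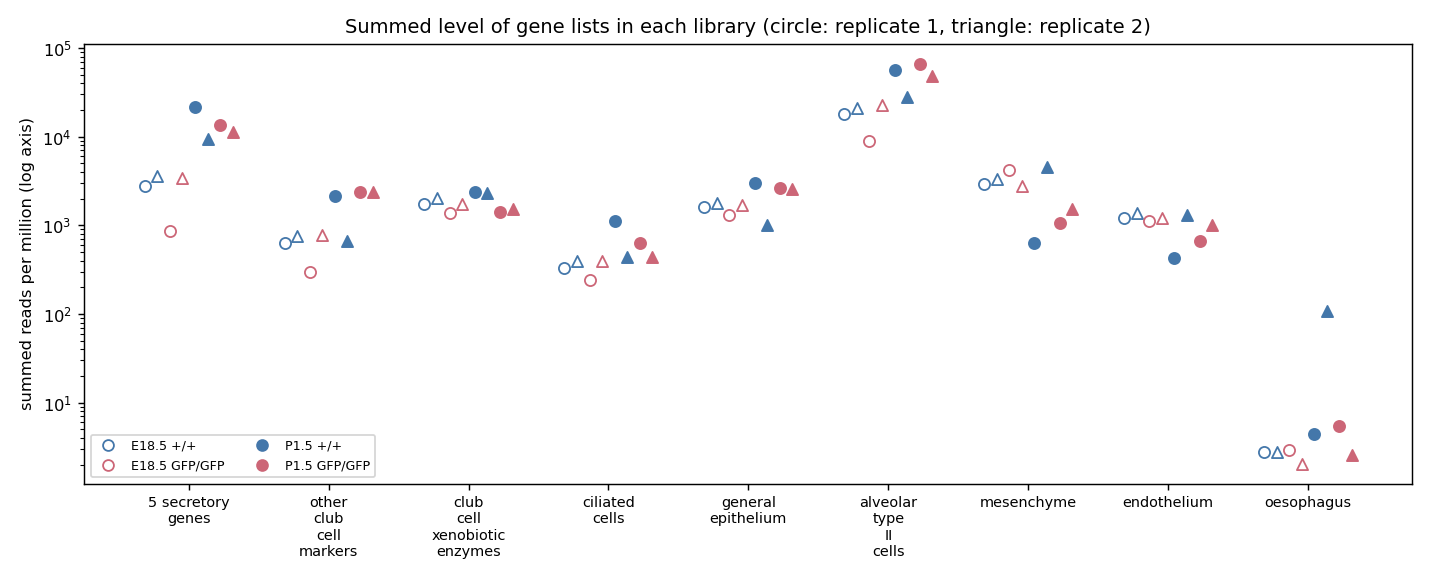
Summed RPM (vertical log axis) of the 5 secretory genes and of 8 marker lists in each of the 8 libraries, open symbols for E18.5 and filled for P1.5, blue for Wfdc2 +/+ and red for Wfdc2 GFP/GFP, with circles for replicate 1 and triangles for replicate 2. The secretory genes span 853 to 21900, and the oesophageal genes stand out in P1.5 Wfdc2 +/+ replicate 2, at 109.

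Levels relative to epithelial genes of the same library were also compared, after the values were seen, and 0 of the 10 tests passed after adjustment. Scgb1a1 minus the mean log2 RPKM of Epcam, Cdh1, Krt8 and Krt18 was −0.83 to 3.44 at E18.5 and 5.63 to 7.06 at P1.5, a difference of 4.22, or 3.23 without E18.5 Wfdc2 GFP/GFP replicate 1 (exact permutation p = 0.0286, adjusted p = 0.0715 over 10 such tests). Cbr2 minus the same mean went from 2.50 to 4.50 at E18.5 up to 5.27 to 6.45 at P1.5, a difference of 1.96, or 1.51 without that library (exact permutation p = 0.0286, adjusted p = 0.0715). For Scgb3a2 (exact permutation p = 0.0571), Scgb3a1 (exact permutation p = 0.0857) and Muc5b (exact permutation p = 0.0571) the stages overlapped. Against Sftpc, the surfactant protein C mRNA of alveolar type II cells, only Scgb1a1 of the 5 genes was higher at P1.5 without overlap, by 2.54 (−7.71 to −4.61 at E18.5 and −3.76 to −2.62 at P1.5). Only Muc5b of the 5 was lower without overlap, at −2.63. Mean log2 RPKM of Sftpc itself rose from 12.25 to 13.48 in Wfdc2 +/+ and from 11.76 to 14.03 in Wfdc2 GFP/GFP. The median of all tested genes moved by −0.32 over both genotypes, so a gene at that median also falls relative to Sftpc. The fall of Muc5b is therefore not particular to it. How many tested genes part the stages against Sftpc or the epithelial mean was not counted. Scgb3a2, Cbr2 and Scgb3a1 moved by −0.22, 0.28 and 0.03 relative to Sftpc. Without E18.5 Wfdc2 GFP/GFP replicate 1 the values against Sftpc were 1.86 for Scgb1a1, −2.36 for Muc5b, −0.26 for Scgb3a2, 0.14 for Cbr2 and −0.27 for Scgb3a1.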

How the data were processed

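RNA from whole lungs at E18.5 and P1.5, of either Wfdc2 genotype, was made into libraries with a directional kit, 2 per group, grouped by the labels. Per the methods and labels, the authors cut reads to 36 bases, trimmed them with Trim Galore 0.4.0, mapped them to mm10 with TopHat 2.1.1 and quantified them in SeqMonk. The authors deposited log2 RPKM for 25965 genes. Whether counting used strand is not given in the sources used here.

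Genes with no read are entered as 0.9 read, and 99.86% to 99.97% of values gave whole reads within 0.02. Totals were 19457647 to 37209333 reads, and 3 reads stand for 0.0806 to 0.1542 RPM, which covers counting error only. The 15627 genes averaging 0.05 RPKM or more were fitted in limma 3.58.1 (R 4.3.3), 4 group means and 8 libraries, trend in the prior, no pseudocount, Benjamini-Hochberg adjustment, two-sided. The 2 libraries of a group differ in sex by their Xist reads and so are not from the same animal, and p-values measure the spread between a female and a male library. On simulated data for the genotype comparison at P1.5, 200 and 194 of 200 genes changed by 3 (log2) were found among 15627 at dispersions of 0.01 and 0.1, with 26 and 6 false calls. The simulated libraries had no differences in composition, whereas the SD of Scgb1a1 reached 2.72 in E18.5 Wfdc2 GFP/GFP. These numbers therefore do not tell how often such a change in the members would be found. In the data, the 3.31 of Scgb1a1 across stages in Wfdc2 +/+ was not called (limma adjusted p = 0.342).

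Members and gene lists were chosen with earlier results of these data known. In each list the 3 genes with the highest mean and up to 4 with the smallest adjusted p under 0.05 were named. Muc5ac, the contrast over both genotypes and the pair and reference differences were added after seeing the data. Other settings tried were pseudocounts of 0.1 and 1, no filter or 0.5 RPKM, median centring, quantile normalization, epithelial reference genes, the compared groups alone, the replicate block, other priors, voom, a threshold of 0.1 and each library left out. Centring on the 500 genes nearest in span was added after seeing the data. Python 3.11.15, pandas 2.3.3, scipy 1.17.1 and matplotlib 3.10.9 were used.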

Additional observations from a re-analysis of the deposited data

How the results depend on the processing

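The counts of members called in both genotype comparisons, in Wfdc2 +/+ across stages and in the interaction stayed at 0 under every alternative tried. In Wfdc2 GFP/GFP across stages, 1 member was called, 0 with a pseudocount of 1 RPKM, no filter, quantile normalization, the replicate block, voom with or without the block, and span-matched centring with or without it, 2 with a filter of 0.5 RPKM, epithelial reference genes or an adjusted p under 0.1, 3 with the 2 groups alone, and 0 to 3 with a library left out. Over both genotypes, 1 was called, 0 with no filter, voom with the replicate block and span-matched centring with or without it, 3 with the filter of 0.5 RPKM, epithelial reference genes or an adjusted p under 0.1, and 0 to 4 with a library left out. The study describes its controls as littermates, but which libraries share a litter is not given, and replicate numbers go with sex. Same-numbered libraries correlated with r = 0.23 at E18.5 and 0.21 at P1.5 in their deviations from group means, and from −0.29 to 0.08 across stages. With the replicate block Scgb1a1 lost its call (limma adjusted p = 0.0639), all called genes in that comparison went from 252 higher and 459 lower to 75 and 50, and in Wfdc2 +/+ from 4 and 5 to 0 and 0.

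Signs turned for Muc5b across stages in Wfdc2 GFP/GFP (median centring 0.47, quantile normalization 0.46, span-matched centring 0.60 with and without the block, and −0.50 to 0.09 with a library left out), for Scgb3a2 in the interaction (median centring 0.40, voom with block 0.02, span-matched centring 0.18 with and without the block, and −0.81 to 0.80 with a library left out), and at P1.5 between genotypes relative to epithelial genes for Scgb3a1 (−0.41), Cbr2 (−0.36) and Muc5b (−0.0021). In that last setting the median of all tested genes was −0.98. With a library left out, signs also turned between genotypes at E18.5 for Scgb3a1 (−2.54 to 0.09), Scgb3a2 (−1.41 to 0.20) and Cbr2 (−1.80 to 0.33), at P1.5 for Scgb1a1 (−0.80 to 0.20), Scgb3a1 (−1.24 to 1.99), Scgb3a2 (−1.26 to 0.04), Cbr2 (−0.38 to 1.23) and Muc5b (−0.12 to 1.68), for Scgb3a1 across stages in Wfdc2 +/+ (−0.64 to 2.60) and in the interaction (−0.01 to 3.22). The cause was not tested. Over the whole table, the stage comparison in Wfdc2 GFP/GFP gave 252 higher and 459 lower genes, 769 and 2267 with the 2 groups alone, 62 and 67 with voom, 135 and 102 with a pseudocount of 1 RPKM, 122 and 227 without a filter, 849 and 430 after median centring, 188 and 1090 against epithelial genes, 639 and 452 with span-matched centring, 0 and 0 with that or voom plus the block or without E18.5 Wfdc2 GFP/GFP replicate 1, and 1085 and 1364 without replicate 2. Over both genotypes, 403 and 400 became 1278 and 564 after median centring, 0 and 1 with span-matched centring plus the block, 1654 and 5471 without P1.5 Wfdc2 +/+ replicate 2, and 20 and 8 without P1.5 Wfdc2 GFP/GFP replicate 1. In Wfdc2 +/+, 4 and 5 became 550 and 1616 without P1.5 Wfdc2 +/+ replicate 2. Median centring moved the median of all genes across stages in Wfdc2 GFP/GFP from −0.46 to 0.21, and the share of calls that were higher from 35.44% to 66.38%. Nearly all calls of the stage comparison in Wfdc2 GFP/GFP were also lost without either P1.5 Wfdc2 GFP/GFP library. With 1 library left in a group, it was assumed to vary like the other groups. Depth did not limit the members, which had at least 154 reads.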
